A study of Mus musculus with 9 samples.

Results

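The 10 genes described here encode core parts and first outputs of the circadian clock. They were chosen by name, as the rows Arntl, Clock, Npas2, Per1, Per2, Per3, Cry1, Nr1d1, Dbp and Tef of a table of raw gene counts with 37203 entries. All 10 held enough counts to be tested, among 14581 genes that did. RNA came from the livers of Wistar rats, which the labels describe as male, in 9 libraries of 3 groups with 3 libraries each. The schisandrin B group was given carbon tetrachloride (CCl4), a hepatotoxic solvent, 3 times a week for 8 weeks (2 mL/kg, 50% in olive oil), and over the last 4 weeks also a daily dose of schisandrin B, a lignan of Schisandra fruit. The study used 25 and 50 mg/kg of schisandrin B, and the labels do not say which dose the 3 libraries had. The fibrosis group received the CCl4 course alone, and the normal group received olive oil in place of CCl4.

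Library totals lay between 10320299 and 16255167 counts, and levels are given as CPM, the count relative to the library total, scaled with TMM factors that align the bulk of the genes between libraries. A level of 3 counts equals 0.176 to 0.286 CPM. Albumin, the defining product of hepatocytes, made up 13.1% to 14.3% of the counts with schisandrin B, 4.18% to 7.65% in fibrosis and 13.9% to 17.1% in the normal group. The Y-linked transcripts Kdm5d and Eif2s3y were present in every schisandrin B and fibrosis library and had no count in any normal library, which goes against the label of male rats. Ddx3y, the other Y-linked gene in the table, had 16, 7 and 6 counts in schisandrin B libraries, 12, 16 and 26 in fibrosis libraries and 12, 12 and 32 in normal libraries, and was called in no comparison. These transcripts leave the sex of the normal libraries unsettled, and a difference in sex could not be told apart from treatment there. The labels give neither the hour at which the livers were taken nor the lighting, so a change in the level of a rhythmic transcript and a shift in the phase of its rhythm cannot be told apart. Separate animals are not stated for the libraries within a group. Every SD and p-value is thus a measure of library spread, which may be technical.

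The clock runs in nearly every cell as a loop of transcription. BMAL1, the product of Arntl, pairs with CLOCK or its relative NPAS2 and turns on genes that carry E-boxes, among them the Per and Cry genes, Nr1d1, Dbp and Tef. The PER and CRY proteins then block BMAL1 and CLOCK, and REV-ERB alpha, the product of Nr1d1, represses Arntl in competition with the ROR receptors. DBP and TEF act on D-boxes and carry the rhythm to liver genes of metabolism and detoxification. In an undisturbed liver Arntl and Npas2 therefore peak at about the opposite time of day to Nr1d1, Dbp, Tef and Per3.

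Promoter sequences show where these arms of the loop meet DNA, and are given here for 5 members with a matching motif. They are mouse sequences from RefSeq (build GRCm38.p6), since rat sequence was not used here, and serve as a guide to the orthologous rat genes. The table holds windows from 250 bases before to 50 bases after a start site, and 9 of the 10 members matched it by symbol, all but Per2. Both strands were searched for the E-box CACGTG, the D-box TTANGTAA and a loose form of the ROR element, TNGGTCA. Of 32851 such windows in the table, 7.15% hold the E-box, 2.32% the D-box and 10.96% the ROR element letters. Capitals mark the matches, and no match overlapped a match of another motif.
Arntl, chr7:113207261-113207560, plus strand: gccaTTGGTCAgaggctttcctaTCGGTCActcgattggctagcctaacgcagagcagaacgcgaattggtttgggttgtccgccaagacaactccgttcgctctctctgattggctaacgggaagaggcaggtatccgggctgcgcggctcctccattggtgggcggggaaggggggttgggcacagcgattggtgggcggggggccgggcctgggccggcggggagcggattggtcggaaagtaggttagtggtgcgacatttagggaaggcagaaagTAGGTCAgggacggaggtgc
Per3, chr4:151044616-151044915, minus strand: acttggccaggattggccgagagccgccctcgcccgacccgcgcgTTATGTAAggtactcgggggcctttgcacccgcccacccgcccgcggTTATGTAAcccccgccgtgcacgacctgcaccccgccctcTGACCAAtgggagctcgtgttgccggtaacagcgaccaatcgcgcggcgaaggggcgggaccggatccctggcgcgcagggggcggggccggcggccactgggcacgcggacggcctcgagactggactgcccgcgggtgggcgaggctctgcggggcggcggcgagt
Cry1, chr10:85185082-85185141, minus strand: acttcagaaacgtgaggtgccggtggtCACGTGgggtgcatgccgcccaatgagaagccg
Per1, chr11:69098756-69098815, plus strand: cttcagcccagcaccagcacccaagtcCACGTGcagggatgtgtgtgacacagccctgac
Tef, chr15:81802519-81802578, plus strand: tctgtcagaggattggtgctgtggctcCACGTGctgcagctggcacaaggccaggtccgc

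The Arntl window holds ROR element letters that begin 246 and 227 bases before its start site and at base 31 after it, and the last of these reads TAGGTCA. The Per3 window holds a pair of D-boxes that begin 205 and 158 bases before the start site. It also holds ROR element letters on the opposite strand, printed as TGACCAA, that begin 118 bases before it. The E-box begins 60 bases before the start site in Cry1, 166 in Per1 and 127 in Tef. Where a gene has several start sites in the table, the window shown is the Arntl one with the most matches and the first with an E-box for Per1 and Tef. The windows of Clock, Npas2, Nr1d1 and Dbp held none of these letters, which says nothing of binding elsewhere. A match is a run of letters and was not tested for binding.

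The first comparison, fibrosis against normal libraries, asks how the clock genes stood in livers after the CCl4 course. Arntl, Clock, Cry1 and Per1 rose, while Dbp, Per3, Tef, Nr1d1 and Per2 fell. Genes that BMAL1 and CLOCK activate thus stood on both sides. Among the members Arntl, 11.9-fold higher, and Dbp, 12.9-fold lower, had the largest changes, and without fibrosis replicate 3 the log2 change of Dbp was -4.49, against -3.68 with it. In all, 9 of 10 members were called by edgeR's quasi-likelihood test at an adjusted p under 0.05, 4 higher and 5 lower, where 48.3% of all tested genes were called, 25.4% higher and 22.9% lower. The same 9 members did not overlap between the groups, 4 higher and 5 lower, against 55.8% of all genes, 29% higher and 26.8% lower. The median absolute log2 change was 1.75 over the members and 0.74 over all tested genes. Scaling by library totals alone shifted the median gene up by 0.43 on the log2 scale. Under that scaling 5 members were called higher and 4 lower, because Npas2 gained and Per2 lost the call.

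The second comparison, schisandrin B against fibrosis libraries, addresses the effect of the compound in CCl4-treated rats. Tef, Per2, Per3 and Dbp rose, and Arntl and Cry1 fell. The fibrosis libraries serve in the first comparison too, so the values of both are not independent. Dbp was 9.98-fold, Per2 7.26-fold and Tef 6.80-fold higher with schisandrin B, and Arntl was 7.36-fold lower. The test called 6 of 10 members, 4 higher and 2 lower, where 47.3% of all genes were called, 22.5% higher and 24.8% lower. The groups did not overlap in 7 members, 5 higher and 2 lower, against 56.8% of all genes, 27.8% higher and 29% lower. The median absolute log2 change was 1.95 over the members and 0.72 over all genes. Under library totals the median gene shifted by -0.27 and 4 members were called higher and 4 lower. Upper-quartile scaling shifted it by 0.13 and called 5 higher and 2 lower.

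The third comparison, schisandrin B against normal libraries, sets treated livers beside livers without CCl4. Per2 was the single member called, 3.46-fold higher in schisandrin B libraries, where 10.5% of all genes were called, 5.25% higher and 5.25% lower. The other 9 members differed by between -0.73 and 0.95 on the log2 scale without a call. The groups did not overlap in 5 members, with Arntl, Clock, Per2 and Tef higher and Dbp lower, against 38.7% of all genes, 19.9% higher and 18.8% lower. With library totals, which moved the median gene by 0.16, 2 members were called. Without fibrosis replicate 1, which enters this fit through the shared estimate of spread, 4 members were called: Clock, Per2 and Tef higher and Nr1d1 lower. In that fit 2814 of 15178 tested genes were called, against 1531 of 14581 with all libraries. Without normal replicate 2, 2 members were called, as Per1 joined Per2, among 1003 of 15011 genes. The SEs and intervals of this comparison rest on all 9 libraries, the fibrosis ones included.

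**Figure D1:**
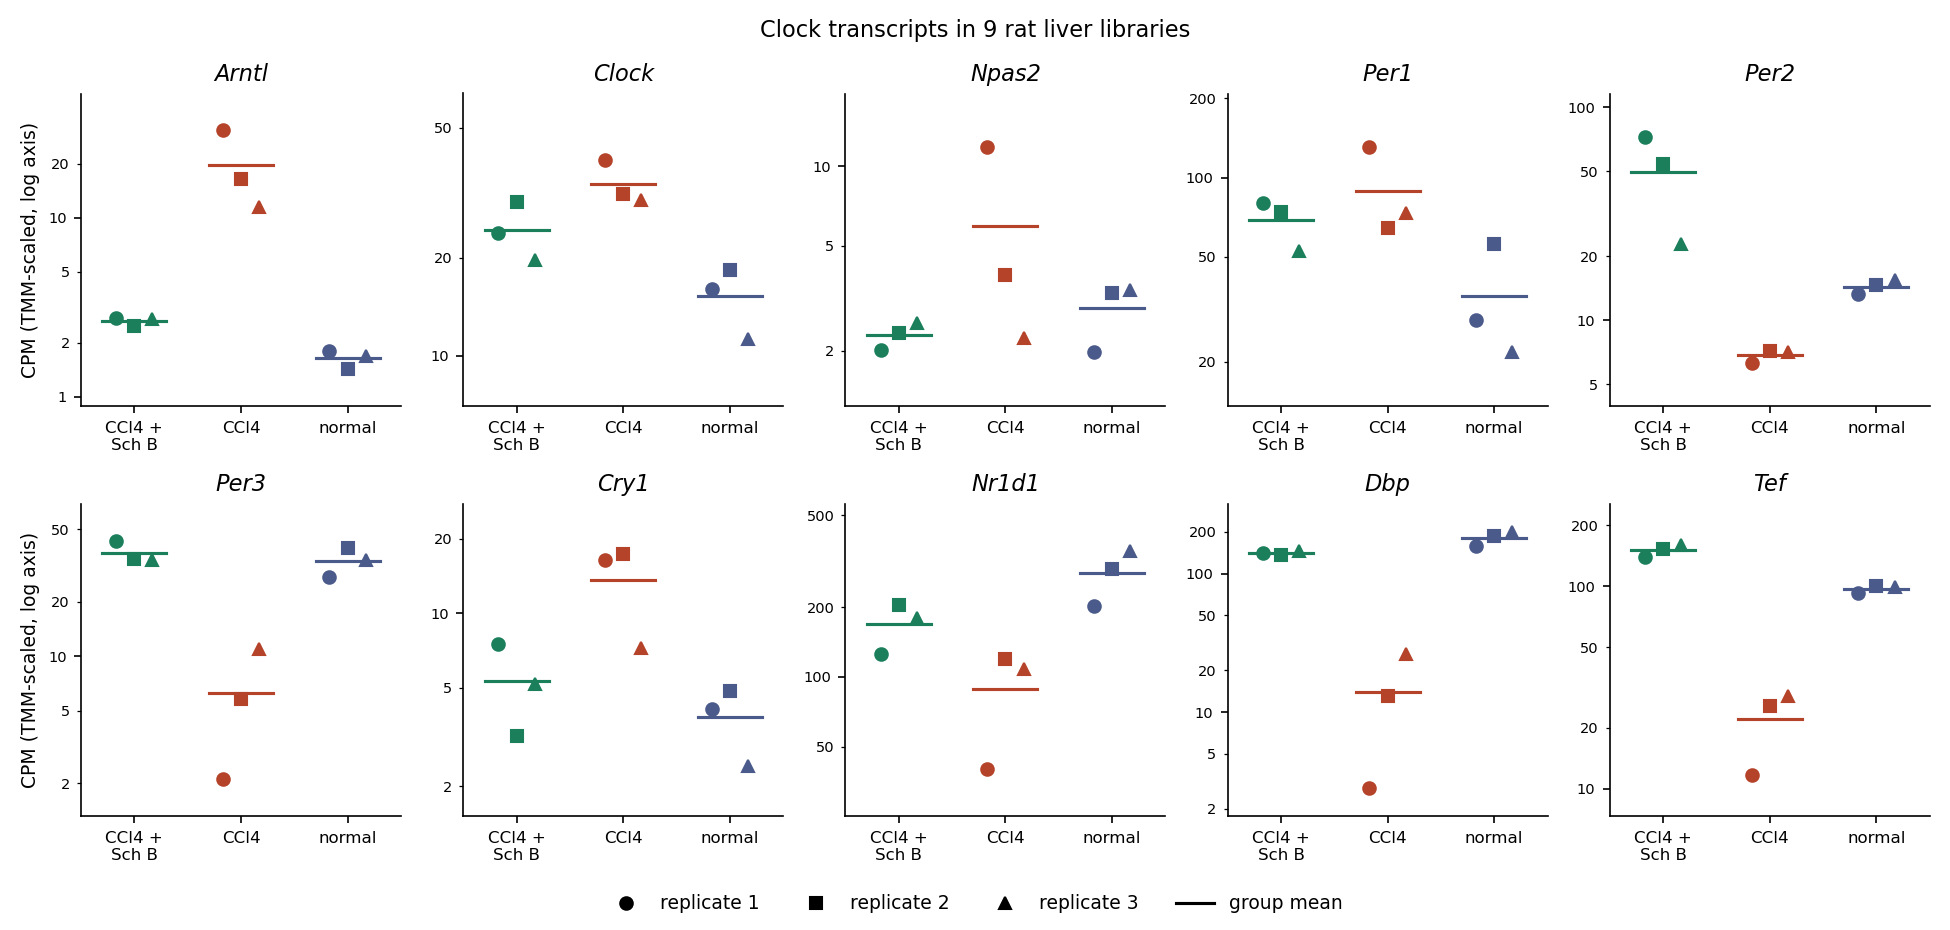
Level of each clock transcript in CPM (TMM-scaled, log axis) in the 3 libraries of the CCl4 plus schisandrin B (Sch B), CCl4 and normal groups; symbols mark replicates 1 to 3 and bars the group means: Arntl is above 11 CPM in the 3 CCl4 libraries and below 3 CPM in the 6 others, while Dbp and Tef are below 30 CPM in the CCl4 libraries and above 90 CPM in the others.

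**Figure D2:**
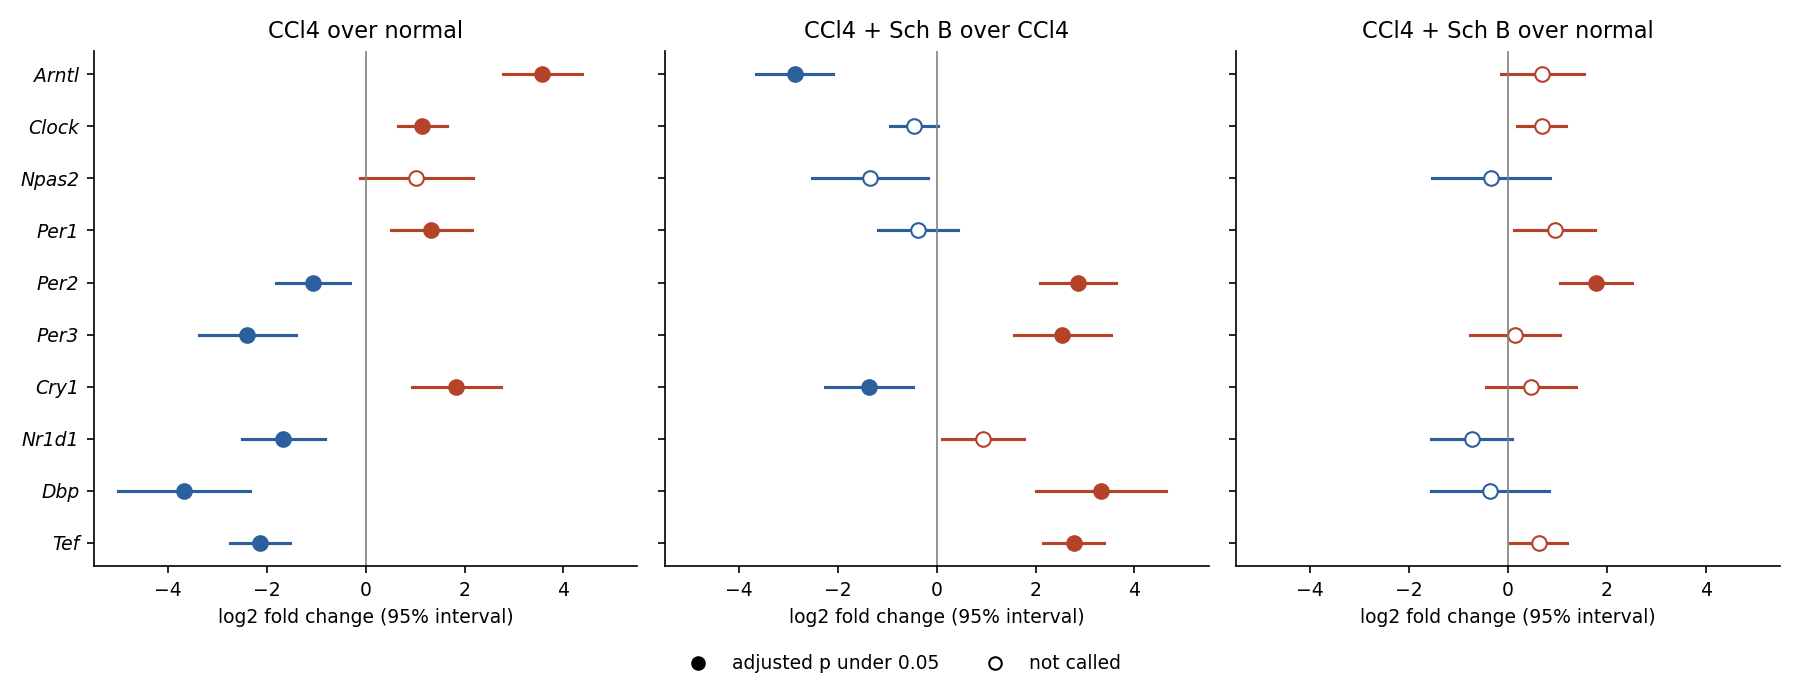
Log2 fold change of each clock gene with its 95% interval from edgeR, for CCl4 over normal, CCl4 plus schisandrin B (Sch B) over CCl4, and CCl4 plus schisandrin B over normal. Filled points have an adjusted p under 0.05 over all 14581 genes and number 9, 6 and 1 from left to right.

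Among the activators, Arntl had the most distinct levels. Its counts stood at 29, 34 and 30 in schisandrin B libraries, at 382, 219 and 196 in fibrosis libraries, and at 21 in each of the 3 normal libraries. In CPM these were 2.77, 2.48 and 2.74 with schisandrin B, 30.9, 16.6 and 11.5 in fibrosis, and 1.80, 1.42 and 1.70 in normal libraries. The fibrosis group lay above both others without overlap, and the schisandrin B libraries lay slightly above the normal ones. Arntl rose by 3.58 ± 0.37 (SE) on the log2 scale in fibrosis over normal (edgeR adjusted p 2.12e-05) and fell by 2.88 ± 0.35 with schisandrin B over fibrosis (7.67e-05). Schisandrin B over normal was 0.70 ± 0.38 without a call (edgeR adjusted p 0.272), with a 95% interval of -0.13 to 1.53. Its 2 calls were kept in all 18 alternatives.

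Clock, whose product is the main partner of BMAL1, moved less. It had 23.9, 29.6 and 19.7 CPM in schisandrin B libraries, 39.9, 31.4 and 30.0 CPM in fibrosis libraries and 16.04, 18.4 and 11.2 CPM in normal libraries. The 3 groups stood in this order without overlap, fibrosis highest and normal lowest. Clock rose by 1.14 ± 0.23 on the log2 scale in fibrosis over normal (edgeR adjusted p 0.00157). With schisandrin B over fibrosis it differed by -0.46 ± 0.22 (edgeR adjusted p 0.108), and over normal by 0.68 ± 0.23 (0.0788), neither of them called. The value over normal passed without fibrosis replicate 1 (0.68, 0.0376), with the 2 groups alone (0.69, 0.0426) and with library totals (0.83, 0.0398). The value over fibrosis passed with library totals (-0.72, 0.0212).

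Npas2, the other partner of BMAL1, was scarce. It had 2.00, 2.33 and 2.55 CPM in schisandrin B libraries, 11.8, 3.85 and 2.23 CPM in fibrosis libraries and 1.97, 3.31 and 3.40 CPM in normal libraries. The fibrosis mean rested on replicate 1, and the groups overlapped in all 3 comparisons. No comparison called Npas2: fibrosis over normal was 1.02 ± 0.52 on the log2 scale (edgeR adjusted p 0.128) and schisandrin B over fibrosis -1.36 ± 0.54 (0.0557). Without fibrosis replicate 1 these values shrank to 0.06 and -0.40 (edgeR adjusted p 0.909 and 0.405). Without fibrosis replicate 3 both passed, at 1.43 and -1.77 (edgeR adjusted p 0.0230 and 0.00898), and without replicate 2 the value of schisandrin B over fibrosis passed at -1.59 (0.0432). With library totals both passed, at 1.38 and -1.56 (edgeR adjusted p 0.0309 and 0.0208). The value of schisandrin B over fibrosis also passed without the filter on low counts (-1.38, 0.0497) and with DESeq2 (-1.36, DESeq2 adjusted p 0.0305).

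The 3 Period genes encode repressors of BMAL1 and CLOCK. Per1, which also answers quickly to glucocorticoid and cAMP signals, had 80.0, 73.8 and 52.5 CPM in schisandrin B libraries, 130.2, 64.4 and 73.1 CPM in fibrosis libraries and 28.8, 56.2 and 21.7 CPM in normal libraries. The fibrosis libraries lay above the normal ones, and the schisandrin B libraries overlapped with both. Per1 rose by 1.32 ± 0.37 on the log2 scale in fibrosis over normal (edgeR adjusted p 0.0131), a call that missed the threshold without fibrosis replicate 1 (0.95, 0.0569) and without normal replicate 1 (1.18, 0.0541). With schisandrin B over fibrosis the difference was -0.38 ± 0.36 (edgeR adjusted p 0.424), with a 95% interval of -1.18 to 0.43. Schisandrin B over normal was 0.95 ± 0.37 and was not called (edgeR adjusted p 0.130), though it passed without normal replicate 2 (1.44, 0.0319).

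Per2 was called in all 3 comparisons. It had 72.6, 53.9 and 22.8 CPM in schisandrin B libraries, 6.31, 7.18 and 7.04 CPM in fibrosis libraries and 13.2, 14.5 and 15.4 CPM in normal libraries. No groups overlapped, and the libraries of the fibrosis and normal groups were close together, while the schisandrin B libraries spread 3.19-fold. Per2 rose by 2.86 ± 0.35 on the log2 scale with schisandrin B over fibrosis (edgeR adjusted p 8.56e-05) and by 1.79 ± 0.33 over normal (0.00681), and all 18 alternatives kept both calls. In fibrosis over normal it fell by 1.07 ± 0.34 (edgeR adjusted p 0.0222), which was the least stable call among the members. It was lost with library totals (-0.63, 0.159), with limma voom (-1.06, 0.0583), and without fibrosis replicate 1, 2 or 3 or normal replicate 2 or 3, where the log2 change lay between -1.10 and -1.01 and the adjusted p between 0.0505 and 0.0831.

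Per3, whose mouse promoter holds the pair of D-boxes printed above, had 43.2, 34.4 and 33.9 CPM in schisandrin B libraries, 2.10, 5.82 and 10.97 CPM in fibrosis libraries and 27.4, 39.4 and 33.9 CPM in normal libraries. The fibrosis libraries lay below the other 6, which overlapped with each other. Per3 fell by 2.39 ± 0.44 on the log2 scale in fibrosis over normal (edgeR adjusted p 0.00138) and rose by 2.54 ± 0.44 with schisandrin B over fibrosis (0.00105). Without fibrosis replicate 3 these values were -3.07 and 3.21. Schisandrin B over normal was 0.15 ± 0.41 (edgeR adjusted p 0.864), with a 95% interval of -0.76 to 1.06.

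Cry1 encodes a cryptochrome repressor whose transcript normally peaks later than those of the Per genes. It had 7.54, 3.20 and 5.20 CPM in schisandrin B libraries, 16.5, 17.3 and 7.21 CPM in fibrosis libraries and 4.12, 4.87 and 2.43 CPM in normal libraries. Fibrosis replicate 3 lay just below the highest schisandrin B library, so these groups overlapped, and the fibrosis and normal groups did not. Cry1 rose by 1.83 ± 0.41 on the log2 scale in fibrosis over normal (edgeR adjusted p 0.00347). It fell by 1.37 ± 0.41 with schisandrin B over fibrosis (edgeR adjusted p 0.0162), and this call was lost without schisandrin B replicate 2 (-1.09, 0.0691), schisandrin B replicate 3 (-1.35, 0.0532) or fibrosis replicate 2 (-1.16, 0.0555). Against normal the schisandrin B value was 0.47 ± 0.42 (edgeR adjusted p 0.527).

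Nr1d1, the heme-binding repressor of Arntl, was lowest in the fibrosis libraries. It had 125.6, 204 and 180.4 CPM in schisandrin B libraries, 39.9, 119 and 108 CPM in fibrosis libraries and 202, 293 and 351 CPM in normal libraries. Fibrosis did not overlap with either other group, and the schisandrin B and normal libraries overlapped by a small margin, with the schisandrin B mean between the other means. Nr1d1 fell by 1.66 ± 0.38 on the log2 scale in fibrosis over normal (edgeR adjusted p 0.00412). Schisandrin B over fibrosis was 0.94 ± 0.37 and just missed the threshold (edgeR adjusted p 0.0597), and it passed in 6 of 18 alternatives, among them those without schisandrin B replicate 1 (1.17, 0.0443) and without fibrosis replicate 2 (1.20, 0.0414). Schisandrin B over normal was -0.73 ± 0.37 without a call (edgeR adjusted p 0.241). It passed without fibrosis replicate 1 (-0.73, 0.0437) and with the 2 groups alone (-0.72, 0.0493).

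Dbp and Tef, the output factors of the D-box, fell together in fibrosis. Dbp had 141, 136 and 146 CPM in schisandrin B libraries, 2.83, 13.1 and 26.0 CPM in fibrosis libraries and 159, 186 and 199 CPM in normal libraries. The fibrosis libraries differed 9.20-fold among themselves and still lay well below the other 6. Dbp fell by 3.68 ± 0.60 on the log2 scale in fibrosis over normal (edgeR adjusted p 0.000734) and rose by 3.32 ± 0.59 with schisandrin B over fibrosis (0.00130). Without fibrosis replicate 3, the highest of its group, these values were -4.49 and 4.13. Its schisandrin B libraries all lay below the normal ones, with a log2 difference of -0.37 ± 0.53 (edgeR adjusted p 0.721), with a 95% interval of -1.56 to 0.83. This SE and interval rest on an estimate of spread shared by all 3 groups, the fibrosis libraries included. The SD was 3.55% of the mean with schisandrin B, 11.4% in normal and 83.0% in fibrosis libraries. None of the 18 alternatives called this difference.

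Tef had 139, 152 and 159 CPM in schisandrin B libraries, 11.7, 25.8 and 28.6 CPM in fibrosis libraries and 92.7, 101 and 98.6 CPM in normal libraries. No groups overlapped, and for Tef, as for Per2, the schisandrin B group was the highest. Tef fell by 2.14 ± 0.28 on the log2 scale in fibrosis over normal (edgeR adjusted p 8.99e-05) and rose by 2.77 ± 0.28 with schisandrin B over fibrosis (2.53e-05). Its schisandrin B value over normal was 0.62 ± 0.26 and was not called (edgeR adjusted p 0.155). It passed without fibrosis replicate 1 (0.62, 0.00847) and with the 2 groups alone (0.63, 0.00628).

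In the fibrosis group replicate 1 was the highest library for Arntl, Clock, Npas2 and Per1 and the lowest for Dbp, Per3, Tef, Nr1d1 and Per2. Such ends are common with 3 libraries a group: replicate 1 was the highest or lowest for 9 members in fibrosis, 8 with schisandrin B and 7 in normal libraries. Fibrosis replicate 2 was the highest for 3 members and the lowest for 1. Replicate 3 lay nearest to the other groups for Arntl, Clock, Npas2, Cry1, Per3, Dbp and Tef. Ratios of counts within a library, which no scaling can move, spread likewise. For every 100 Dbp counts there were 1.96, 1.82 and 1.88 Arntl counts in schisandrin B libraries, 1091, 126 and 44.1 in fibrosis libraries and 1.13, 0.763 and 0.852 in normal libraries. For every 100 Nr1d1 counts there were 2.20, 1.21 and 1.52 Arntl counts in schisandrin B libraries, 77.3, 13.9 and 10.7 in fibrosis libraries and 0.890, 0.485 and 0.484 in normal libraries. These ratios are not adjusted for transcript length and compare libraries, not genes. Without fibrosis replicate 1, Arntl, Clock, Cry1, Dbp, Per3, Tef and Nr1d1 were still called in fibrosis over normal.

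**Figure D3:**
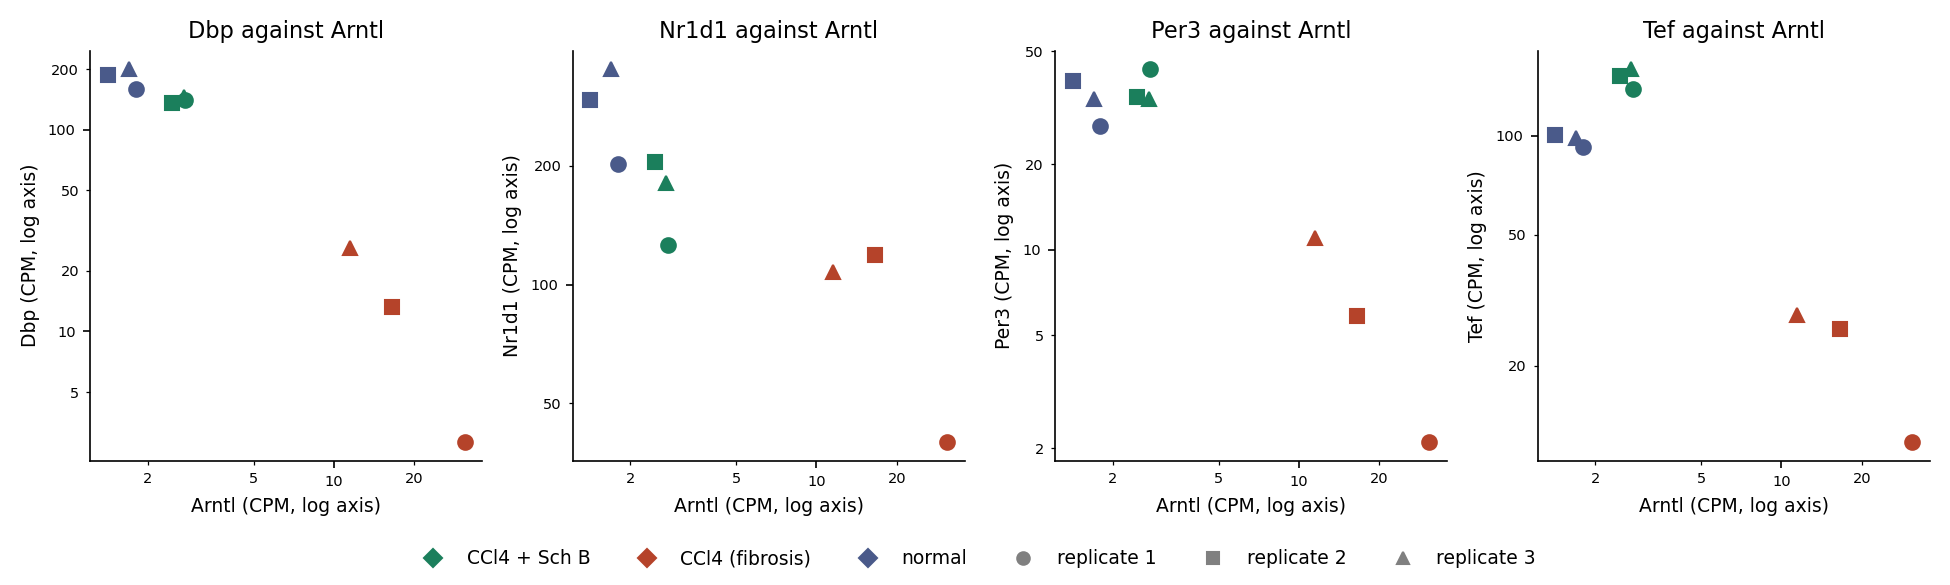
Levels of Dbp, Nr1d1, Per3 and Tef against Arntl in the 9 libraries, both in CPM on log axes, with colours for the CCl4 plus schisandrin B (Sch B), CCl4 and normal groups and symbols for replicates. The 3 CCl4 libraries lie at high Arntl and low values of the other genes, farthest out in replicate 1, and the 6 other libraries lie at low Arntl.

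Per1 and Per2 also differed in their proportion. For every 100 Per2 counts there were 110.1, 137 and 230.4 Per1 counts in schisandrin B libraries, 2065, 897 and 1038 in fibrosis libraries and 218, 387 and 142 in normal libraries. The fibrosis libraries lay above all others, and the schisandrin B and normal libraries overlapped.

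The rest of the clock was examined with a list of 18 further loop genes, kinases and ligases, of which 16 are in the table and 14 could be tested. In fibrosis over normal 4 rose and 7 fell, beside 48.3% of all genes called, and without normal replicate 1 the number called was 7. Among the repressors of the negative arm, Cry2 fell by 1.08 ± 0.23 on the log2 scale (edgeR adjusted p 0.00248), unlike Cry1, and Nr1d2, which encodes REV-ERB beta, fell by 0.75 ± 0.15 (0.00149) like Nr1d1. Under library totals neither was called (Cry2 -0.63, adjusted p 0.0560, and Nr1d2 -0.32, 0.128). Bhlhe41, which encodes the E-box repressor DEC2, fell by 2.18 ± 0.38 (edgeR adjusted p 0.000720). Rora, an activator of Arntl at ROR elements, rose by 1.36 ± 0.34 (edgeR adjusted p 0.00649), and Csnk1e, the casein kinase that marks PER proteins for breakdown, rose by 1.31 ± 0.27 (0.00217). Timeless, which in mammals serves mainly DNA replication, had the lowest adjusted p of the list (edgeR, 9.11e-05), at 2.38 ± 0.36 CPM in fibrosis and 8.82 ± 0.18 CPM in normal libraries (SD, n = 3 each).

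In schisandrin B over fibrosis, 4 of these 14 genes rose and 3 fell, a share near the 47.3% of all genes called. Nfil3, which encodes the D-box repressor E4BP4 and so opposes DBP and TEF, had 39.2, 59.9 and 46.4 CPM in schisandrin B libraries, against 237, 122 and 93.5 CPM in fibrosis libraries, and fell by 1.63 ± 0.31 on the log2 scale (edgeR adjusted p 0.00146). The normal libraries held 69.1, 78.8 and 90.7 CPM of it. Bhlhe40, which encodes DEC1, fell by 2.35 ± 0.50 (edgeR adjusted p 0.00343), Csnk1e fell by 0.81 ± 0.27 (0.0279), and Ciart, a repressor of CLOCK and BMAL1, rose by 1.16 ± 0.34 (0.0139). Timeless rose by 1.90 ± 0.24 and Nr1d2 by 0.55 ± 0.15 (edgeR adjusted p 0.000100 and 0.0102). Bhlhe40 was at -1.56 without fibrosis replicate 1. Ciart lost the call without schisandrin B replicate 3 (0.98, 0.0645), and Csnk1e without schisandrin B replicate 1 (-0.69, 0.109) or 2 (-0.68, 0.111) or fibrosis replicate 1 (-0.49, 0.0904). With library totals Nr1d2 (0.27, 0.209) and Ciart (0.87, 0.0732) were not called, and with upper-quartile factors Csnk1e was not (-0.67, 0.0550).

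Between schisandrin B and normal libraries, 1 of the 14 rose and 2 fell, beside 10.5% of all genes. The number called was 7 without fibrosis replicate 1, where 2814 of 15178 genes were called. It was 1 without schisandrin B replicate 1, 2 or 3 or normal replicate 2 or 3, where 702 to 1003 genes were called. Bhlhe41 fell by 2.40 ± 0.39 and Bhlhe40 fell by 1.93 ± 0.49 on the log2 scale (edgeR adjusted p 0.00329 and 0.0349), the call of Bhlhe40 being lost without schisandrin B replicate 1, 2 or 3 or normal replicate 2 or 3 (adjusted p 0.0781 to 0.121) and without the filter on low counts (0.112). Arntl2, the paralog of Arntl, had 42 counts in schisandrin B libraries and 3 in normal libraries, a ratio of pooled rates of 15.4 with an exact 95% counting interval of 4.94 to 77.9. Its call (edgeR adjusted p 0.0251) was lost without any 1 of these 6 libraries (0.0546 to 0.0921). Nfil3 differed by -0.71 ± 0.31 (edgeR adjusted p 0.167) and Rora by 0.73 ± 0.34 (0.201), neither of them called. Both passed without fibrosis replicate 1 (-0.72, 0.0200, and 0.72, 0.0275) and with the 2 groups alone.

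**Figure D4:**
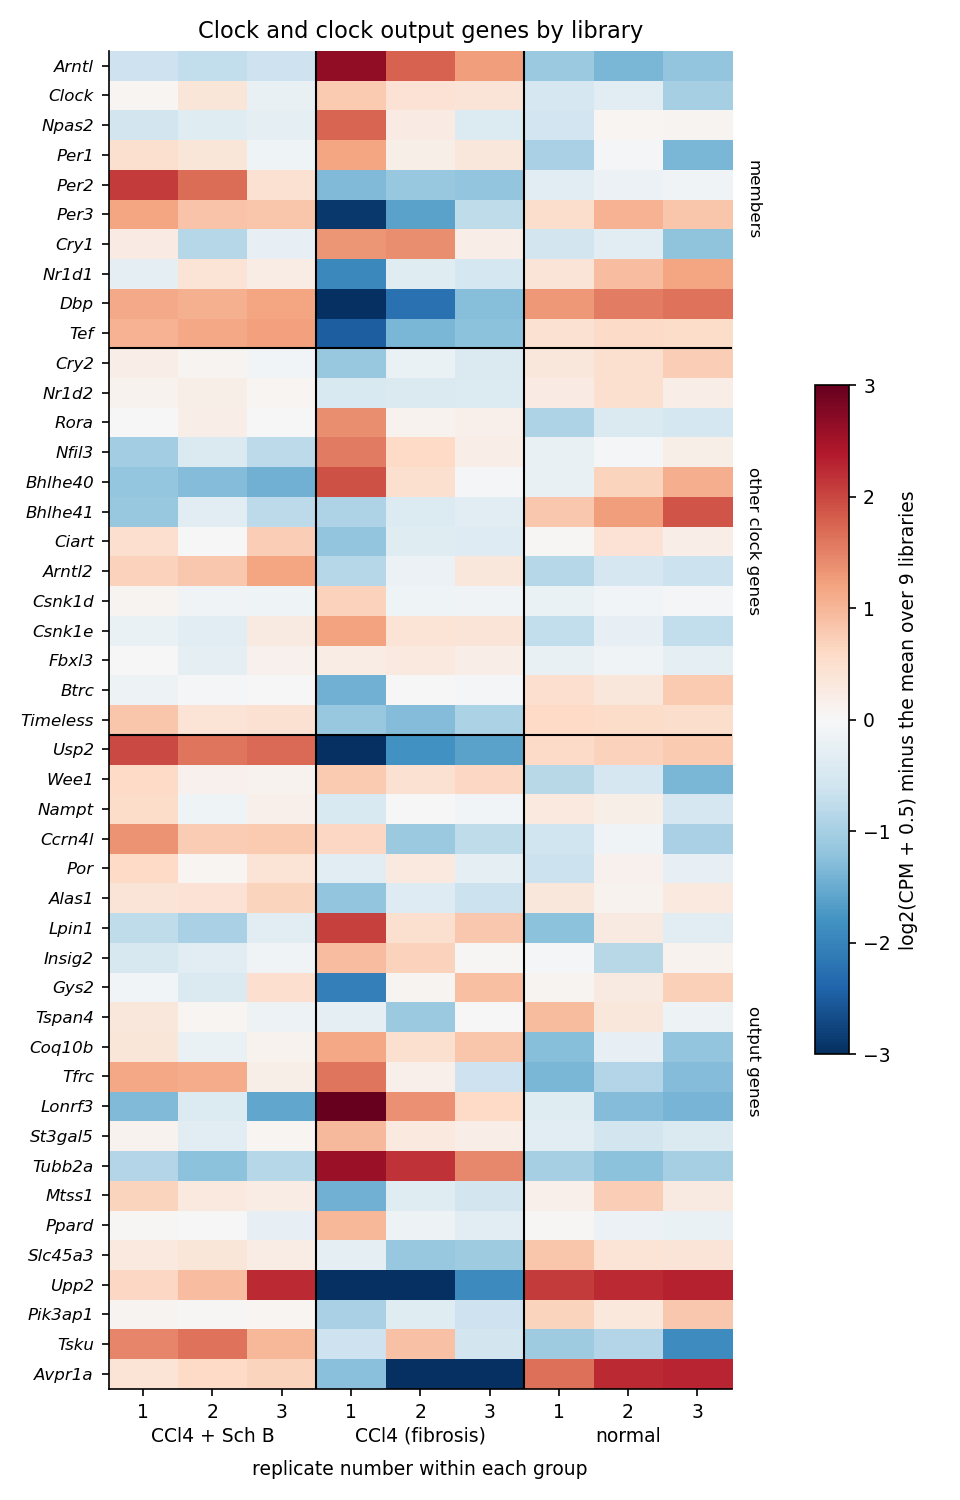
Log2(CPM + 0.5) minus the mean over the 9 libraries for the 10 members, 13 of the 14 other clock genes and the 22 clock output genes that could be tested, with libraries in columns by group (CCl4 plus schisandrin B, CCl4, normal) and colours limited to -3 to 3. Dbp, Tef, Per3, Usp2, Upp2 and Avpr1a are low in the CCl4 columns, and Arntl and Tubb2a are high there.

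Genes known as rhythmic in rodent liver were followed as a list of 25, with 24 in the table and 22 tested. In fibrosis over normal 9 rose and 8 fell, beside 48.3% of all genes called, and the median log2 change was 0.22, beside 0.03 over all genes. In schisandrin B over fibrosis the medians were 0.42 and -0.03. Usp2, which encodes a deubiquitinase under direct control of BMAL1 and CLOCK, had 116, 89.3 and 95.6 CPM in schisandrin B libraries, 1.46, 7.86 and 9.21 CPM in fibrosis libraries and 43.7, 47.6 and 50.3 CPM in normal libraries. The groups stood apart, with fibrosis lowest, schisandrin B highest and replicate 1 again the lowest fibrosis library. Usp2 fell by 2.92 ± 0.48 on the log2 scale in fibrosis over normal (edgeR adjusted p 0.000762) and rose by 4.01 ± 0.50 with schisandrin B over fibrosis (0.000158). The difference from normal was 1.09 ± 0.44 (edgeR adjusted p 0.148).

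Other outputs went both ways in fibrosis over normal. Upp2, a uridine phosphorylase, averaged 6.43 ± 6.30 CPM in fibrosis and 238 ± 17.0 CPM in normal libraries (SD, n = 3 each), and Avpr1a, the hepatic vasopressin receptor, averaged 8.67 ± 8.02 CPM in fibrosis and 187 ± 43.4 CPM in normal libraries (SD, n = 3 each). Upp2 fell by 5.18 and Avpr1a fell by 4.44 on the log2 scale (edgeR adjusted p 0.000902 and 0.000178). Without fibrosis replicate 3 Upp2 was at -6.27, and without fibrosis replicate 1 Avpr1a was at -5.504. Pik3ap1, a signalling adapter, fell by 1.25 ± 0.19 (edgeR adjusted p 0.000317). Tubb2a, a tubulin, rose by 3.30 ± 0.28 (edgeR adjusted p 7.03e-06) and Coq10b, a coenzyme Q binding protein, by 1.70 ± 0.30 (0.000712).

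Of the 22 output genes, 9 rose and 5 fell with schisandrin B over fibrosis, where 22.5% of all genes were called higher and 24.8% lower. Upp2 rose by 4.42 ± 0.82 on the log2 scale and Avpr1a by 2.91 ± 0.54 (edgeR adjusted p 0.00193 and 0.00161). Upp2 was at 3.76 without schisandrin B replicate 3 and at 5.49 without fibrosis replicate 3, and Avpr1a at 3.97 without fibrosis replicate 1. Alas1, the rate-limiting enzyme of heme synthesis, averaged 265 ± 27.5 CPM with schisandrin B and 115 ± 30.6 CPM in fibrosis (SD, n = 3 each) and rose by 1.20 ± 0.22 (edgeR adjusted p 0.000912). Slc45a3, a sugar transporter, rose by 1.16 ± 0.28 (edgeR adjusted p 0.00498), and Tubb2a fell by 3.20 ± 0.28 (1.07e-05).

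Between schisandrin B and normal libraries, 3 output genes rose and none of the 22 fell, beside 10.5% of all genes called. The number called was 8 without fibrosis replicate 1, where 2814 of 15178 genes were called. It was 5 without fibrosis replicate 2, with 1676 of 15144 genes called. It was 1 without schisandrin B replicate 1 or 2 or normal replicate 1 or 3, with 773 to 931 genes called. Tsku, a secreted liver protein, rose by 2.61 ± 0.43 on the log2 scale (edgeR adjusted p 0.00425), Wee1, a mitotic kinase under E-box control, by 1.32 ± 0.32 (0.0230), and Tfrc, the transferrin receptor, by 2.08 ± 0.52 (0.0337). The call of Wee1 was lost without schisandrin B replicate 1, 2 or 3 or normal replicate 1 or 3 (adjusted p 0.0539 to 0.0893), and that of Tfrc without schisandrin B replicate 1 or 2 or normal replicate 1, 2 or 3 (0.0717 to 0.109) and without the filter on low counts (0.122). Ccrn4l, which encodes nocturnin, differed by 1.54 ± 0.44 and was not called (edgeR adjusted p 0.0526), and it passed in 9 of 18 alternatives, among them those without fibrosis replicate 1, 2 or 3 (0.00186 to 0.0485).

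Genes that follow signals known to set the liver clock were followed beside these results, and their part in them was not tested. Of 13 glucocorticoid and temperature genes 4 rose and 2 fell in fibrosis over normal, a share near the 48.3% of all genes called. Fkbp5, a glucocorticoid-induced chaperone, rose by 2.54 ± 0.31 on the log2 scale (edgeR adjusted p 6.65e-05) and Hsd11b1, which makes active glucocorticoid inside hepatocytes, by 2.85 ± 0.28 (1.61e-05). As Kdm5d and Eif2s3y had no count in normal libraries, sex could not be told apart from treatment in these rises. Tsc22d3, which encodes the glucocorticoid-induced protein GILZ, fell by 1.16 ± 0.23 (edgeR adjusted p 0.00134), and the receptor gene Nr3c1 fell by 0.95 ± 0.19 (0.00154). Rbm3, an RNA-binding protein induced by cold, rose by 1.59 ± 0.24 (edgeR adjusted p 0.000270), and the metallothionein Mt2A by 1.90 ± 0.54 (0.0151). The call of Mt2A was lost without fibrosis replicate 3 (1.28, 0.0554), without normal replicate 3 (1.71, 0.0551) and without the filter on low counts (1.93, 0.0758).

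Of these 13 genes, 3 rose and 1 fell with schisandrin B over fibrosis, beside 47.3% of all genes called. Tsc22d3 had 119, 75.9 and 78.6 CPM in schisandrin B libraries, against 18.4, 28.3 and 25.0 CPM in fibrosis libraries, and rose by 1.93 ± 0.23 on the log2 scale (edgeR adjusted p 6.21e-05). Zbtb16, another glucocorticoid target, rose by 1.79 ± 0.40 (edgeR adjusted p 0.00420), and Rbm3 fell by 1.21 ± 0.24 (0.00155). Tat, the classic glucocorticoid-induced enzyme of tyrosine breakdown, rose by 0.68 ± 0.24 (edgeR adjusted p 0.0382) in groups that overlapped. This call was lost with library totals (0.43, 0.143) and with the 2 groups alone (0.68, 0.0640). It was also lost without schisandrin B replicate 1 or 3, fibrosis replicate 1 or 3 or normal replicate 2 or 3 (0.0530 to 0.109). Fkbp5 was not called, at -0.44 ± 0.29 (edgeR adjusted p 0.241), nor was Hsd11b1, at 0.44 ± 0.26 (0.187). With schisandrin B over normal, 4 rose and none of the 13 fell, beside 10.5% of all genes, and 2 were called without schisandrin B replicate 1 or 3 or normal replicate 1, 2 or 3. Hsd11b1 rose by 3.30 ± 0.29 and Fkbp5 by 2.10 ± 0.31 (edgeR adjusted p 4.46e-05 and 0.00165), and Tat rose by 0.97 ± 0.25 (0.0286). Here too sex could not be told apart from treatment. Tat lost this call without schisandrin B replicate 1 or 3 or normal replicate 1, 2 or 3 (0.0705 to 0.108). Tsc22d3 rose by 0.77 (edgeR adjusted p 0.0483). Its call was lost with limma voom (0.75, limma adjusted p 0.0525). It was also lost without any 1 schisandrin B or normal library or without fibrosis replicate 3 (edgeR adjusted p 0.0548 to 0.181).

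Of 13 fasting and feeding genes, 2 rose and 4 fell in fibrosis over normal, 5 rose and 6 fell with schisandrin B over fibrosis, and 0 rose and 4 fell with schisandrin B over normal. Of all genes 48.3%, 47.3% and 10.5% were called in these comparisons. Fgf21, a hormone of fasting and stress, rose by 4.63 ± 0.85 on the log2 scale in fibrosis over normal and fell by 4.89 ± 0.87 with schisandrin B over fibrosis (edgeR adjusted p 0.00207 and 0.00174), and without fibrosis replicate 1 these values were 3.28 and -3.54. Pck1, the gluconeogenic enzyme that fasting induces, fell by 2.17 ± 0.57 and rose by 2.69 ± 0.59 in the same comparisons (edgeR adjusted p 0.0107 and 0.00397), and the first was not called without the filter on low counts (-2.14, 0.0613). Fasn, the fatty acid synthase that feeding induces, fell by 3.42 ± 0.40 with schisandrin B over fibrosis, and against normal it fell by 3.14 ± 0.39 (edgeR adjusted p 6.21e-05 and 0.000663). Thrsp, a lipogenic factor, fell by 2.66 ± 0.39 in fibrosis and fell by 1.68 ± 0.37 with schisandrin B, both over normal (edgeR adjusted p 0.000223 and 0.0165). Its fibrosis value was -3.31 without fibrosis replicate 2, and its schisandrin B call was lost without schisandrin B replicate 2 or 3 or normal replicate 3 (0.0641 to 0.0729). Unlike Fasn, Thrsp rose with schisandrin B over fibrosis, by 0.98 ± 0.37 (edgeR adjusted p 0.0462), in groups that overlapped.

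In bulk liver RNA, fewer cells of a type and less RNA per cell cannot be told apart. The summed level of 8 hepatocyte markers ran from 189152 to 208926 CPM in schisandrin B libraries, 69916 to 113448 CPM in fibrosis libraries and 226235 to 262797 CPM in normal libraries. Albumin made up most of this sum. In fibrosis over normal 4 of the 8 fell, Alb with a log2 change of -1.75, Tf of -1.46, Ttr of -1.32 and Apoa1 of -0.58, the last of these without a call in 8 of 18 alternatives. The others were not called, with Serpina1 at 0.42, Fgb at 0.25, Apob at -0.24 and Hnf4a at -0.66. The sum of 6 cholangiocyte markers ran from 13.3 to 29.5 CPM with schisandrin B, 52.3 to 64.3 CPM in fibrosis and 20.1 to 25.0 CPM in normal libraries. Epcam made up most of it, at 33.8 to 52.1 CPM in fibrosis libraries. Of the 5 cholangiocyte markers tested, 3 rose in fibrosis over normal and 2 were not called. The sum of 8 T and NK cell markers ran from 11.8 to 16.5 CPM with schisandrin B, 5.29 to 8.33 CPM in fibrosis and 15.0 to 24.1 CPM in normal libraries. None of these markers was at 0 in a whole group. Sums for stellate cells, macrophages and sinusoidal endothelium overlapped between fibrosis and at least 1 other group. The stellate cell markers differed among themselves, and those named here were chosen after their values were seen. Acta2, Des, Rgs5 and Dcn rose by 1.54, 1.37, 1.51 and 2.11 on the log2 scale in fibrosis over normal. With schisandrin B over fibrosis Acta2 fell by 1.86 and Des fell by 1.37 (edgeR adjusted p 0.000718 and 0.00501). Rgs5 (-0.46) and Dcn (-0.53) were not called there, nor were Pdgfrb (-0.23) and Reln (0.26). Lrat, which stores retinol as esters in quiescent stellate cells, had 18.2, 16.7 and 20.2 CPM in schisandrin B libraries, 1.05, 1.13 and 1.52 CPM in fibrosis libraries and 10.04, 19.6 and 11.5 CPM in normal libraries. It fell by 3.45 ± 0.31 in fibrosis over normal (edgeR adjusted p 9.82e-06) and rose by 3.87 ± 0.31 with schisandrin B over fibrosis (7.51e-06). Col1a1, a fibrillar collagen, was at 0.38 ± 0.44 in fibrosis over normal (edgeR adjusted p 0.506) and rose by 1.55 ± 0.44 with schisandrin B over fibrosis (0.0150), a call lost without fibrosis replicate 1 (1.38, 0.0836) or 2 (1.29, 0.0532), with library totals (1.25, 0.0573) and without the filter on low counts (1.51, 0.0631). The part of these shifts in the clock results was not tested.

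The genes whose levels followed a member most closely were ranked by the Pearson correlation of log2 CPM over all 9 libraries. These values are a description, since the points fall into 3 groups and share libraries. For Arntl they were Rab24, a small GTPase, at 0.998, Cd3eap, a subunit of RNA polymerase I, at 0.996, Tnfrsf12a, the receptor of the cytokine TWEAK, at 0.995, the HSP90 co-chaperone Cdc37l1 at 0.995 and the purine enzyme Gmps at 0.994. Rab24 had 21.5, 18.6 and 21.2 CPM in schisandrin B libraries, 104, 67.9 and 54.3 CPM in fibrosis libraries and 17.4, 12.7 and 16.2 CPM in normal libraries, with the library order of Arntl in the fibrosis group. For Nr1d1 the nearest genes were LOC103690024, Trim14, Taok3, LOC100911356 and Tmem184a, at 0.972 to 0.980. For Per1 they were Tmed5, Lysmd3, LOC100364335, Fbxl17 and Dnm1l, at 0.952 to 0.965. No gene of the clock, output or cue lists was among these 15.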

How the data were processed

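The authors deposited raw counts per gene, whole numbers with no normalization, for 9 libraries. Per the labels' protocols, total RNA was extracted with Trizol and sequenced on the Ion Proton platform. No aligner or counter is named in the labels. The labels name the organism as mouse and the submitters' processing notes name GRCm38, but the strain is Wistar rat and the symbols are rat symbols, such as the 1687 that start with Olr. Genes are therefore given by symbol without rat positions.

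Samples were grouped by source name, and replicates are numbered in accession order. The analysis ran edgeR 4.0.16 under R 4.3.3, with filterByExpr, TMM factors, a robust quasi-likelihood fit to all 9 libraries and an F test per pair of groups. A called gene has an adjusted p (Benjamini-Hochberg, all 14581 genes) under 0.05. SE is the log2 fold change divided by the root of F. The script was also run on simulated counts with few changed genes. Such counts cannot test the scaling where many genes change, as here.

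The members and gene lists were chosen with earlier results of these data known. All members are named, then up to 6 genes per list and comparison with the lowest adjusted p, and 5 nearest genes each for Arntl, Nr1d1 and Per1 (prior count 2). Additional values shown are of genes named by the same rule in another comparison, and of cell markers. Values of 1 gene that this rule names are not reported here. Alternatives were scaling by library totals, upper-quartile factors or DESeq2 size factors, no filter, a minimum mean of 5 CPM, the tools limma 3.58.1 (voom) and DESeq2 1.42.0, the 2 groups alone, omission of the 20 most counted genes, and omission of each library. Figures used Python 3.11.15 and matplotlib 3.10.9. Intervals on counts and floors cover counting error only.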

Additional observations from a re-analysis of the deposited data

How the results depend on the processing

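Over 18 alternatives, no value of a member changed direction, and 503 of 537 member values kept their side of the threshold. The other 34 comprise 12 calls lost, in Per2, Cry1 and Per1, and 22 calls gained, in Nr1d1, Npas2, Clock, Tef and Per1. The number of members called stayed between 7 and 9 in fibrosis over normal and between 5 and 7 with schisandrin B over fibrosis when 1 library was left out, and between 1 and 4 with schisandrin B over normal. In the last comparison it was 2 with library totals and 4 with only the 2 groups compared, against 1. The number of all genes called there was 1531, 2951 with only the 2 groups compared, and 702 to 2814 without 1 library. It was 2814 without fibrosis replicate 1, 702, 777 and 874 without schisandrin B replicates 3, 2 and 1, and 931, 1003 and 773 without normal replicates 1, 2 and 3. Between fibrosis and normal, leaving out 1 library gave 6045 to 7253 calls, and between schisandrin B and fibrosis 5669 to 7021. Library totals raised the share of calls that were higher in fibrosis than in normal to 74.7%, against 52.7%, lowered it to 32.6% with schisandrin B over fibrosis, against 47.6%, and raised it to 70.3% with schisandrin B over normal, against 50.0%. The cause was not tested. Of 1625 values of other named genes, 1504 kept their side, 76 lost and 44 gained the call, and Col1a1 in fibrosis over normal, not called, changed direction without fibrosis replicate 3, within a leave-one-out range of -0.17 to 0.63 around 0.38. No paired analysis was possible because the labels give no replicate number that groups share. Arntl and Npas2 had 21 to 49 counts in each normal library, which limits their precision. A 2-library arm is assumed to vary like the other groups.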
